A study of Mus musculus with 8 samples.

Results

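Of the 22013 genes in the deposited table, 10 are described here. They encode the peroxiredoxins (Prdx1 to Prdx6), the glutathione peroxidases Gpx1 and Gpx4 and the superoxide dismutases Sod1 and Sod2. They are the rows of the table with these gene symbols, and all 10 passed the low-count filter, with between 484 and 96580 counts in any library. The libraries were made from mouse blastocysts of wild-type ICR animals, an outbred stock, that had been fertilised in vitro and grown in KSOM medium under lowered oxygen. In 4 libraries the embryos were grown from fertilisation onwards with 50 nM of an agomir of miR-21-5p, a chemically modified mimic of that microRNA, and in 4 blank control libraries they received vehicle without any oligonucleotide. Each library pooled 5 embryos, so neither single embryos nor their cell layers were resolved, and no unrelated oligonucleotide served as a second control.

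Superoxide and hydrogen peroxide leak from respiration and from oxidases. Superoxide dismutases turn superoxide into hydrogen peroxide, which peroxiredoxins and glutathione peroxidases reduce to water. Peroxiredoxins use a reactive cysteine, which thioredoxin restores in most of them but not in Prdx6. Glutathione peroxidases of the Gpx1 and Gpx4 type use a selenocysteine and draw on glutathione. Preimplantation embryos are sensitive to oxidative stress in culture, and their medium and oxygen level are set with that in mind.

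The question for this comparison was whether the microRNA mimic altered the transcripts of these enzymes, so the microRNA is shown first, with its seed (bases 2 to 8) in capitals, as RefSeq gives the mouse form (GRCm38.p6, chr11:86584120-86584141, minus strand).
mmu-miR-21a-5p: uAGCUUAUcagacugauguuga
The 7-base match to that seed, ATAAGCT, was absent from the longest 3' untranslated region that GENCODE gives for each of the 10 genes, while 1019 of 12238 tested genes with such a region (8.33%) held it. The shorter 6-base match TAAGCT stood once each in Prdx1, Prdx6 and Sod2, and 27.1% of tested genes held at least 1. These 3 places are shown with the 6 bases in capitals, since they are the nearest thing to a seed match in the set.
Prdx1: gtgaggctagTAAGCTctcaggat
Prdx6: ctcattagtgTAAGCTctgagata
Sod2: ggcttagcggTAAGCTgatgagac
The regions searched ran from 60 bases in Prdx4 and 72 bases in Sod1 to 4963 bases in Sod2, and short regions hold fewer matches of any kind. A match describes letters and not a working site.

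The pools had the transcripts of a blastocyst. Summed markers of trophectoderm, the outer layer, lay between 4127 and 10778 CPM in agomir libraries and between 2954 and 5178 CPM in controls (CPM, counts scaled for library size with TMM factors). Inner cell mass markers summed to 761 to 1272 CPM with the agomir and 657 to 1082 CPM in controls, and primitive endoderm markers to 1439 to 1690 CPM with the agomir and 1069 to 1603 CPM in controls. Of 11 tested inner cell mass markers only 4 had a higher mean with the agomir. The largest was Sall4, at 539 CPM with the agomir and 301 CPM in controls, while Nanog had 102 CPM and 148 CPM. Of 10 tested primitive endoderm markers 6 were higher, and Dab2 made up most of that sum, at 1331 CPM and 1081 CPM. The groups overlapped for each of these named genes, and the sums follow the largest genes. Total counts ranged from 18799156 to 23147449 in agomir libraries and from 12246102 to 21271696 in controls. In a principal component analysis agomir 3 stood away from the rest along component 2 (21.5% of variance), and control 2 did so along component 1 (27.5%). In pooled embryos, fewer cells of a type and less RNA per cell cannot be told apart.

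Prdx1, the abundant cytosolic peroxiredoxin, was the most highly expressed of the 10 per unit of gene length. Its FPKM (fragments per kilobase of transcript, scaled to library size) was 3740, 3510, 1844 and 2829 in agomir libraries 1 to 4, and 3536, 2914, 2606 and 2724 in control libraries 1 to 4. It ranked between place 19 and place 78 of all genes in the table, depending on the library. Among the summed FPKM of the 10 genes it took 40.2% to 51.9% with the agomir and 43.6% to 54.7% in controls. Agomir 3 was the lowest library and agomir 1 the highest, so the groups overlapped.

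Behind it came Gpx4, which reduces lipid hydroperoxides in membranes and whose loss permits ferroptosis, at 1226 ± 183 FPKM with the agomir and 1170 ± 126 FPKM in controls (SD, n = 4 each). Gpx1, the general cytosolic glutathione peroxidase, followed at 656 ± 117 FPKM with the agomir and 542 ± 112 FPKM in controls. In FPKM, the 8 values of each of these 3 genes lay clear of those of the next gene in the order. The remaining peroxiredoxins formed a plateau: over all 8 libraries the mean was 302 FPKM for Prdx2, 296 for Prdx4, 226 for Prdx5, 185 for Prdx3 and 160 for Prdx6. Neighbours on that plateau overlapped, and Prdx2 exceeded Prdx4 in 4 of 8 libraries. Lowest in mean stood the manganese enzyme of mitochondria, Sod2, with 87.1 FPKM and all its values below those of Prdx6, and the copper and zinc enzyme of the cytosol, Sod1, with 68.0 FPKM. Sod2 was above Sod1 in 6 of 8 libraries, and the highest Sod1 value, 121 FPKM in control 2, passed the lowest Prdx6 value, 109 FPKM in agomir 3.

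**Figure D1:**
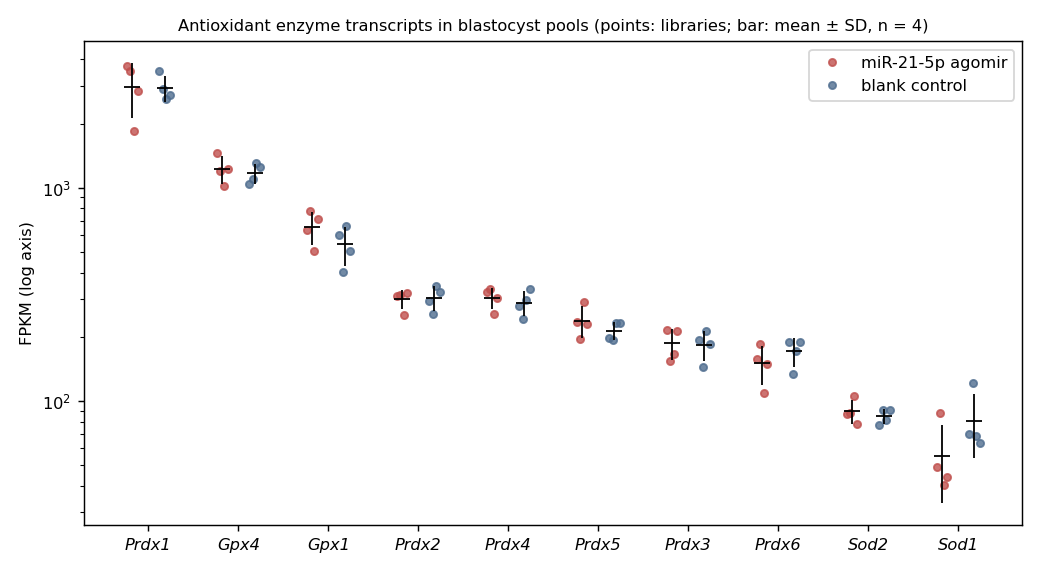
FPKM on a log axis for each of the 10 genes, in order of their mean, with 1 point per library (agomir left, blank control right) and bars for mean ± SD (n = 4). The points of Prdx1, Gpx4 and Gpx1 each lie above those of the next gene, and the 2 groups overlap for every gene.

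None of the 10 genes passed the test. In edgeR's quasi-likelihood test adjusted over 12366 genes, 0 of 10 had an adjusted p (FDR) under 0.05, where 0% of all genes tested did. DESeq2 called 35 genes, 0 of them among the 10. Their adjusted p ran from 0.807 to 0.952, and the smallest of any gene was 0.299. Without adjustment, 0 of 10 reached p under 0.05, against 6.38% of all genes (2.64% higher and 3.74% lower with the agomir). Groups that did not overlap were found for 0 of 10, against 3.89% of all genes (1.42% higher and 2.47% lower). The log2 fold change, agomir over blank control, was above 0 for 8 genes under the scaling used (TMM), for 7 when libraries were scaled by total count alone and for 6 in FPKM, with Prdx2 and in FPKM also Prdx1 changing sign. Under TMM it was above 0 for 50.6% of all genes. The median of the 10 was 0.14, beside 0.00477 for all genes tested. It was 0.07 without control 2, 0.03 without both control 2 and agomir 3, and 0.03 with library-size scaling. The median of all genes in these 3 settings was 0.01, -0.01 and -0.11. In log2(FPKM + 1) the median was 0.05 for the 10 and -0.07 for all genes, so both moved with the scaling.

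In this fit every 95% interval, taken gene by gene, lay within a 2-fold change in either direction, and the widest reach was a log2 value of -0.97, for Sod1. That bound rests on all 8 libraries and on the scaling used, since Sod1 was at -0.68 (SE 0.22) without agomir 2 and at -0.55 (SE 0.29) with library-size scaling. For Prdx1 the interval ran from -0.35 to 0.59 and for Gpx4 from -0.22 to 0.58, so changes smaller than these bounds were not resolved with 4 pools per group.

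**Figure D2:**
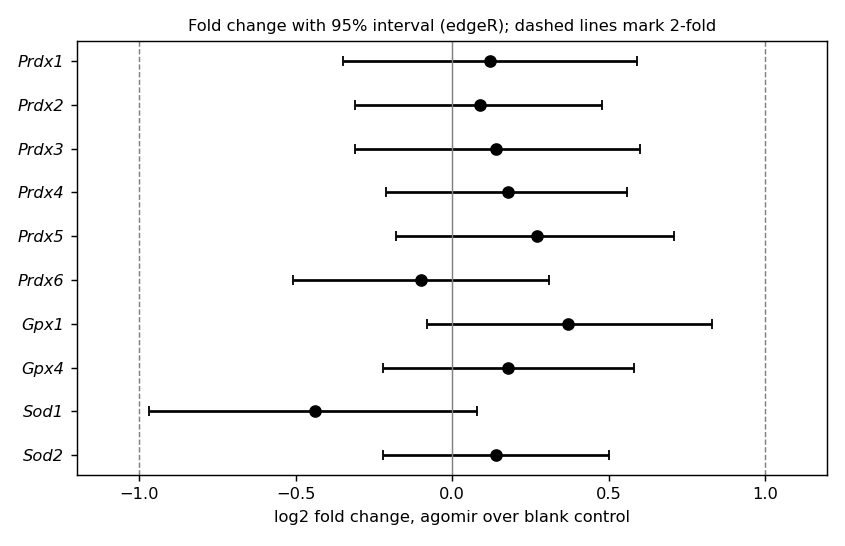
Log2 fold change, agomir over blank control, with its 95% interval from edgeR (4 libraries per group) for each gene. Dashed lines mark a 2-fold change, and all 10 intervals lie between them and cross 0.

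Sod1 had the lowest p of the set and differed most in size. It stood at 31.2, 52.5, 29.3 and 31.5 CPM in agomir libraries 1 to 4, and at 42.7, 68.5, 43.4 and 42.1 CPM in controls 1 to 4. In each group replicate 2 was high and the other 3 lay close together, and agomir 2 stood above 3 of the 4 controls. The means were 36.1 ± 10.9 CPM with the agomir and 49.2 ± 12.9 CPM in controls (SD, n = 4 each), a log2 fold change of -0.44 (SE 0.24, unadjusted p = 0.0884, edgeR adjusted p = 0.807). Without agomir 2 the value was -0.68 (edgeR unadjusted p = 0.0117, adjusted p = 0.777), and without control 2 it was -0.24. Leaving out both control 2 and agomir 3 gave -0.15. Ccs, the chaperone that loads copper into Sod1, had 30.4 CPM with the agomir and 28.8 CPM in controls.

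Its mitochondrial counterpart Sod2 held steadier. The values were 463, 454, 584 and 465 CPM in agomir libraries 1 to 4 and 406, 437, 431 and 511 CPM in controls 1 to 4. Only agomir 3 exceeded all controls (log2 fold change 0.14, SE 0.16, 95% interval -0.22 to 0.50). The ratio of Sod1 to Sod2 in FPKM was 0.569, 1.01, 0.382 and 0.562 with the agomir, and 0.913, 1.34, 0.84 and 0.699 in controls. Again replicate 2 was the highest of each group, and agomir 2 lay inside the control range.

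Gpx1 was the member furthest above its control level. Agomir libraries 1 to 4 had 614, 700, 562 and 783 CPM, while controls 1 to 4 had 550, 345, 640 and 514 CPM. Control 3 exceeded agomir libraries 1 and 3, and control 2 was lower than every other library. The means were 664 ± 97.2 CPM with the agomir and 513 ± 124 CPM in controls (SD, n = 4 each), a log2 fold change of 0.37 (SE 0.21, unadjusted p = 0.0986, edgeR adjusted p = 0.810). It ran from 0.23 without control 2 to 0.51 without control 3. Gpx4, the other selenoenzyme, had 1264, 973, 1017 and 1207 CPM with the agomir and 857, 836, 1126 and 1126 CPM in controls, with overlapping groups (log2 fold change 0.18, SE 0.18). Gpx1 stood at 0.434 to 0.646 of the FPKM of Gpx4 with the agomir and 0.368 to 0.578 in controls.

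Among the cytosolic peroxiredoxins, Prdx1 had 4848, 4344, 2741 and 4148 CPM in agomir libraries and 4403, 3330, 3385 and 3671 CPM in controls. The agomir pools held both the highest and the lowest value (log2 fold change 0.12, SE 0.22). Prdx2, its close relative, averaged 405 ± 42.1 CPM with the agomir and 381 ± 72.1 CPM in controls (SD, n = 4 each). Prdx6, which has a single catalytic cysteine and also a phospholipase activity, was the only peroxiredoxin whose mean CPM was below that of controls, at 209 ± 28.4 CPM with the agomir against 224 ± 43.9 CPM in controls (SD, n = 4 each; log2 fold change -0.10, SE 0.19). Prdx2, Prdx6 and Gpx4 have annotated pseudogenes that could exchange reads with them, so their levels carry that doubt.

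The peroxiredoxins of organelles showed the same overlap. Prdx4, which works in the endoplasmic reticulum, had 317, 308, 288 and 337 CPM with the agomir and 263, 211, 290 and 342 CPM in controls. Its gene is X-linked, and control 4, the highest library, had a sum of 2.38 CPM over 4 Y-linked genes. The other controls had sums of 137 to 184 CPM and agomir libraries 57.3 to 154 CPM. Agomir 4, with nearly as much Prdx4 as control 4, had the highest agomir sum, 154 CPM. Agomir 3, with the lowest agomir sum, 57.3 CPM, had the lowest agomir Prdx4. The part of pool sex in the Prdx4 values was not tested. Prdx3, the main peroxiredoxin of mitochondria, had 313, 212, 280 and 351 CPM with the agomir and 269, 187, 310 and 281 CPM in controls. Prdx5, found in mitochondria, peroxisomes and cytosol, had 223, 171, 323 and 228 CPM with the agomir and 173, 174, 217 and 221 CPM in controls. The highest Prdx5 value was that of agomir 3 and the lowest that of agomir 2, and without agomir 3 its log2 fold change of 0.27 (SE 0.20) became 0.0843. Counts from mitochondrially encoded genes took 5.08%, 4.87%, 9.86% and 9.47% of agomir libraries 1 to 4 and 7.0% to 8.25% of controls, and their part in the Prdx3, Prdx5 and Sod2 values was not tested.

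Libraries of the same group differed from each other. Relative to each gene's own mean over 8 libraries, control 2 was below 0 for 9 of 10 genes and was the lowest library for 6 of them, with a median of -0.36 on the log2 scale. Sod1 was the exception there, at 0.74, its highest value. In agomir 3 the genes parted: Prdx1 stood at -0.47, Sod1 at -0.49 and Prdx6 at -0.34, while Prdx5 stood at 0.61 and Sod2 at 0.32. That library also had the highest trophectoderm marker sum, 10778 CPM, where the other agomir libraries had 4127 to 5749 CPM and controls 2954 to 5178 CPM. Of 14 tested trophectoderm markers all 14 had a higher mean with the agomir, 7 at an unadjusted p under 0.05 in edgeR against 2.64% of all genes in that direction, and 0 of 14 passed the adjusted threshold. Their part in the Prdx5 and Sod2 values was not tested. Agomir 4 was above the mean for 8 of 10 genes and control 4 likewise for 8. These centred values rest on the TMM factors, which were largest in control 2 (1.14) and smallest in agomir 3 (0.879). In FPKM the lowest library was agomir 3 for Prdx1, Prdx2, Prdx6, Gpx4 and Sod1. It was control 2 for Prdx3, Prdx4, Prdx5 and Gpx1, and control 1 for Sod2.

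**Figure D3:**
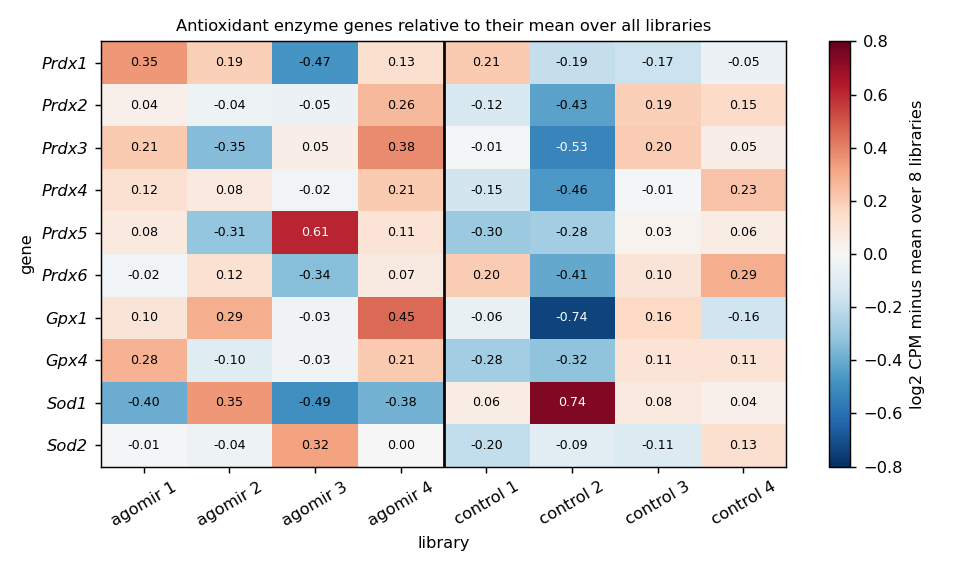
Log2 CPM of each gene in each library minus the gene's mean over the 8 libraries, agomir left of the line and blank control right. Control 2 is low for every gene but Sod1, and agomir 3 is low for Prdx1, Prdx6 and Sod1 but high for Prdx5 and Sod2.

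Likeness between profiles was measured as the root mean square difference of these centred log2 values over the 8 libraries. Prdx2 and Prdx4 were the closest pair at 0.097, and Gpx4 lay at 0.117 from Prdx2. Prdx5 and Sod2 were each other's nearest member at 0.176. Sod1 stood farthest from the other members, at 0.475 from its nearest, Prdx1, and it was the farthest member for 8 of the other 9. Among 8690 genes with at least 5 CPM, the single gene most like each member was Snx18 for Prdx1 (0.081), Cdc42se2 for Prdx2 (0.041), Tor1aip2 for Prdx3 (0.066), the ribosomal protein gene Rplp0 for Prdx4 (0.046) and Tpm4 for Prdx5 (0.101). For the rest it was Tex10 for Prdx6 (0.059), Arl6ip6 for Gpx1 (0.075), Ap4s1 for Gpx4 (0.059), Pgpep1 for Sod1 (0.086) and Rala for Sod2 (0.057). A nearest gene among so many is close by selection, and no function is read from it.

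Many antioxidant genes are induced by the transcription factor Nrf2 (gene Nfe2l2) through the antioxidant response element, so promoters were searched for its core, TGACNNNGC, on both strands. RefSeq windows (GRCm38.p6, 250 bases before to 50 after the start) were at hand for 9 of the 10 genes, with 4 windows for Gpx4. Of the 27025 genes with a window 14% held the core, and of 32851 windows 12.4% did. Prdx1 and Sod1 held 1 match each, both read from the opposite strand, and their windows are shown because they are the 2 that matched, with the match in capitals.
Prdx1 promoter, chr4:116685349-116685648, plus strand: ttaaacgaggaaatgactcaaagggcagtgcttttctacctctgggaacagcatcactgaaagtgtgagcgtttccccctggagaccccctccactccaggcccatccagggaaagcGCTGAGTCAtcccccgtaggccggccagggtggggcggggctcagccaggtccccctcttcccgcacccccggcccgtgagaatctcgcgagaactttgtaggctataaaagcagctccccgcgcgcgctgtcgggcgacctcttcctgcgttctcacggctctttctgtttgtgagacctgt
Sod1 promoter, chr16:90220512-90220811, plus strand: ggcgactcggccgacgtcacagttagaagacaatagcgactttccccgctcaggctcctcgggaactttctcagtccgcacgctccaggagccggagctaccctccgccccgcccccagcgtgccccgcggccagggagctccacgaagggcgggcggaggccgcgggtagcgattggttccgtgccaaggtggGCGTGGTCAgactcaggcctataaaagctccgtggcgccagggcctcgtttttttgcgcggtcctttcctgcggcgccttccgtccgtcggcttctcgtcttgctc
The Prdx1 match began 133 bases before the start and the Sod1 match 56 bases before it. Their transcripts had log2 fold changes of opposite sign, 0.12 and -0.44, neither past the test. The factor's own gene Nfe2l2 had 129 CPM with the agomir and 103 CPM in controls (log2 fold change 0.32, SE 0.21), and Keap1, whose product marks Nrf2 for degradation, had 14.4 CPM with the agomir and 9.94 CPM in controls, with 24.0 CPM in agomir 3.

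Genes around the members were examined as 6 lists of 92 genes, of which 79 passed the filter: the thioredoxin and glutathione systems, the Nrf2 pathway, selenoproteins, other enzymes of the same families, and enzymes that produce superoxide or peroxide. In edgeR's test 0 of 79 passed the adjusted threshold, as 0% of all genes did, and the smallest adjusted p among them was 0.303. Without adjustment, p was under 0.05 for 12 of 79 (15.2%), 5 higher and 7 lower, against 6.38% of all genes. Groups did not overlap for 9 of 79 (11.4%), against 3.89% of all genes. The lists were chosen with earlier results of these data known, so these shares are not independent of those results. Without both control 2 and agomir 3, p was under 0.05 in edgeR for 7 companion genes, while the count over all genes went from 789 to 769.

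Of the thioredoxin system 0 of 14 tested genes passed in either direction, with 5 higher and 9 lower in mean and a median log2 fold change of -0.17. Txn1, the cytosolic thioredoxin that recharges Prdx1 and Prdx2, had 604 CPM with the agomir and 684 CPM in controls (log2 fold change -0.18, SE 0.22). Txn2, its mitochondrial form that serves Prdx3, had 632, 509, 531 and 606 CPM with the agomir and 390, 313, 582 and 467 CPM in controls (0.38, SE 0.20). Only control 3 reached into the agomir range of Txn2. Txnrd1, the cytosolic thioredoxin reductase, had 29.7 CPM with the agomir and 33.4 CPM in controls. Srxn1, which repairs overoxidised peroxiredoxins, had 10.2 CPM with the agomir and 12.7 CPM in controls. The sestrin gene Sesn1 was at 6.12, 7.63, 5.69 and 6.20 CPM with the agomir and 11.1, 11.1, 8.51 and 8.34 CPM in controls, groups that did not overlap (unadjusted p = 0.0213, edgeR adjusted p = 0.691). Sesn3 was likewise lower in every agomir library than in any control, at 4.57, 5.46, 4.91 and 3.82 CPM with the agomir and 6.51, 6.08, 7.26 and 5.51 CPM in controls (-0.44, SE 0.24). The third sestrin gene, Sesn2, had the opposite sign, with 16.4 CPM with the agomir and 12 CPM in controls (0.45, SE 0.27), and its groups overlapped.

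The glutathione system had 0 of 18 past the threshold, with 9 higher and 9 lower in mean and a median of 0.01. Gclm, the modifier subunit of the enzyme that limits glutathione synthesis, had 15, 16.7, 13.8 and 13.5 CPM with the agomir and 25.5, 25.8, 17.9 and 18.3 CPM in controls. No agomir library reached the controls (log2 fold change -0.57, SE 0.20, edgeR adjusted p = 0.678). Gsr, which regenerates glutathione, had 17.3 CPM with the agomir and 16.9 CPM in controls. The transferase gene Gstm1 had 27.4, 22.6, 24.2 and 30.3 CPM with the agomir and 42.3, 49.0, 75.9 and 38.9 CPM in controls (-0.98, SE 0.23, edgeR adjusted p = 0.476). Another transferase gene, Gsta4, had 277, 248, 318 and 276 CPM with the agomir and 175, 187, 229 and 200 CPM in controls (0.50, SE 0.16, edgeR adjusted p = 0.678), and both genes had groups that did not overlap. The membrane transferase gene Mgst1 had 4.07, 3.43, 0.424 and 1.6 CPM with the agomir and 7.91, 8.17, 12.2 and 6.26 CPM in controls. The cystine transporter gene Slc7a11 was too low to test, at 0.0483 to 0.303 CPM with the agomir and 0.348 to 0.882 CPM in controls.

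In the list of the Nrf2 pathway 0 of 19 passed, with 8 higher and 11 lower and a median of -0.09. Me1 encodes a malic enzyme of the cytosol and is a source of NADPH. It had 43.0, 39.1, 33.9 and 42.4 CPM with the agomir and 77.8, 82.5, 63.3 and 66.8 CPM in controls (log2 fold change -0.87, SE 0.17, edgeR adjusted p = 0.303). DESeq2 called it, the only one of the 92 genes and 0 of the 10 members among its 35 calls. Taldo1, an enzyme of the pentose phosphate pathway, had 248, 170, 294 and 168 CPM with the agomir and 108, 159, 162 and 142 CPM in controls (0.63, SE 0.22, edgeR adjusted p = 0.678). Agomir libraries 2 and 4 lay just above the highest control.

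Selenoprotein genes, which include the machinery that places selenocysteine in Gpx1 and Gpx4, had 0 of 18 past the threshold, with 10 higher and 8 lower and a median of 0.02. Eefsec, the elongation factor for selenocysteine, had 23.7, 30.2, 34.6 and 17.4 CPM with the agomir and 9.85, 13.7, 17.2 and 17.5 CPM in controls (log2 fold change 0.86, SE 0.26, edgeR adjusted p = 0.656). Sephs2, which makes the selenium donor, had 93.6 CPM with the agomir and 71.9 CPM in controls (0.38, SE 0.18), and Selenot had 135 CPM with the agomir and 167 CPM in controls (-0.30, SE 0.16). Selenop, a secreted selenium carrier, had 2.21, 3.38, 0.909 and 2.03 CPM with the agomir and 2.87, 4.50, 6.37 and 4.17 CPM in controls.

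Of the other superoxide dismutases, glutathione peroxidases and catalase, listed with the chaperone gene Ccs, 0 of 7 tested genes passed the threshold, with 2 higher and 5 lower and a median of -0.28. Catalase, the peroxisomal enzyme encoded by Cat, had 45.5, 42.7, 33.4 and 47.8 CPM with the agomir and 45.7, 47.0, 39.0 and 38.3 CPM in controls. Gpx8 had 3.46, 2.90, 0.848 and 1.6 CPM with the agomir and 4.58, 3.34, 7.49 and 3.82 CPM in controls (log2 fold change -1.12, SE 0.44, edgeR adjusted p = 0.729). With the agomir Gpx2 averaged 23.6 CPM, Gpx3 16.1 CPM and Gpx5 1.54 CPM, and in controls Gpx2 averaged 31.6 CPM, Gpx3 19.6 CPM and Gpx5 3.08 CPM. Enzymes that produce superoxide or peroxide had 0 of 7 past the threshold and a median of -0.33, with 2 higher and 5 lower. With the agomir Ero1b averaged 4.57 CPM, Maoa 42.0 CPM and the oxidase subunit gene Cyba 9.22 CPM. In controls Ero1b averaged 6.23 CPM, Maoa 52.6 CPM and Cyba 11.9 CPM. Without control 3 the median of this list was 0.07, and Maoa and Cyba changed sign.

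Markers of granulosa and cumulus cells, which surround the egg and entered the fertilisation drops with it, were summed in each library as well. Their sum over 12 genes was 38.3, 37.9, 7.03 and 20.6 CPM in agomir libraries 1 to 4 and 73.0, 92.7, 143 and 50.9 CPM in controls 1 to 4, so the groups did not overlap. Of the 12 genes 3 passed the filter and 0 the adjusted threshold in edgeR (2 at an unadjusted p under 0.05). Most of the sum in every library came from 2 steroid enzyme genes, Cyp11a1 and Hsd3b1. Cyp11a1 had 4.79 to 16.1 CPM in agomir libraries and 20.5 to 59.6 CPM in controls. Hsd3b1 had 0.606 to 24.2 CPM in agomir libraries and 27.9 to 79.1 CPM in controls. The sum therefore describes mainly these 2 genes, and the other markers were near the floor. Cyp19a1 was at 0 in all libraries, and Amh, Fshr, Foxl2, Has2, Ptgs2, Ptx3 and Tnfaip6 each stayed under 1 CPM. Inhba reached at most 1.07 CPM and Star at most 2.60 CPM. Agomir 3 had the lowest sum and the lowest Mgst1, Gpx8 and Selenop, and control 3 had the highest sum and the highest Gstm1, Mgst1, Gpx8 and Selenop. In control 3, however, Me1 was at 63.3 CPM and Gclm at 17.9 CPM, the lowest control value of each. Agomir 3 had the lowest Me1, 33.9 CPM, but not the lowest Gclm or Gstm1. The part of such cells in these values was not tested.

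**Figure D4:**
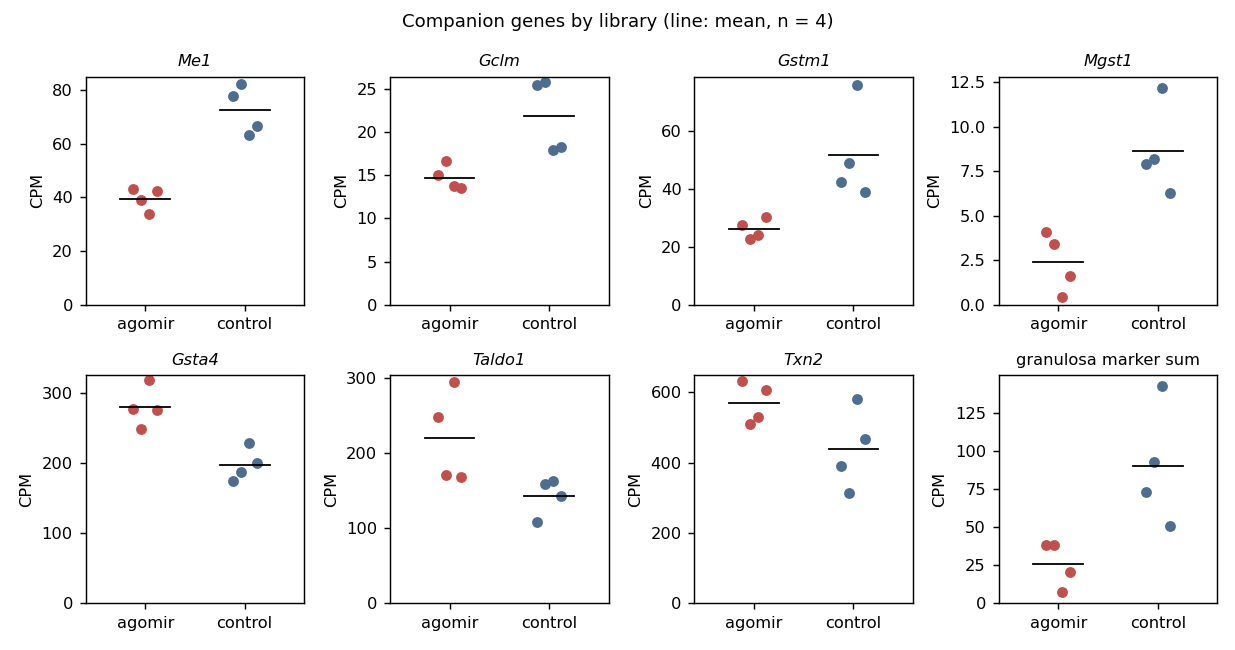
CPM by library for 7 companion genes and, last, the summed granulosa and cumulus markers (mostly Cyp11a1 and Hsd3b1), agomir left and blank control right, with a line at each mean (n = 4). Each of the 7 was among the 4 genes of smallest p in its list, and groups did not overlap for 9 of all 79 companion genes tested. Me1, Gclm, Gstm1, Mgst1 and the marker sum are lower in all agomir libraries than in any control, Gsta4 and Taldo1 are higher, and the groups overlap for Txn2.

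Across 19 alternative ways of processing the data, the 10 members gave 0 calls in each. Over all genes there were also 0 calls, except for 35 in DESeq2 and 1 in edgeR without control 4, so these counts of 0 say little about the members themselves. The sign of the log2 fold change was the same throughout for 8 of them, Prdx1 and Prdx2 being those that turned. For Gpx1 the values ran from 0.23 to 0.51 and for Sod1 from -0.68 to -0.15.

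**Figure D5:**
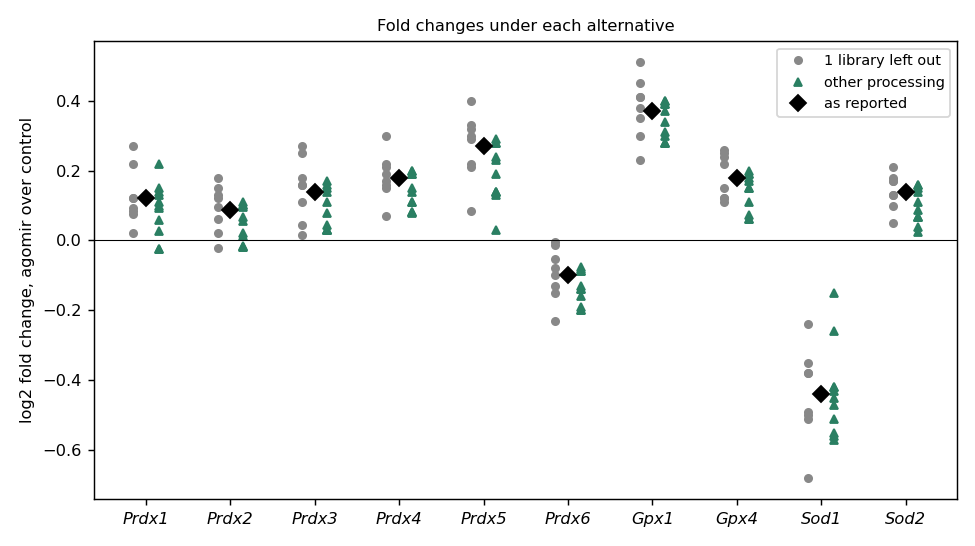
Log2 fold change, agomir over blank control, of each gene as reported (diamonds), with 1 library left out (circles) and under other processing (triangles). Prdx1 and Prdx2 reach both sides of 0, and Gpx1 and Sod1 keep their sign.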

How the data were processed

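Pools of 5 blastocysts gave 8 poly(A) libraries, read from both ends. Per the file headers, the deposited table gives each gene and library a count and an FPKM value. Of 176104 deposited count values 1212 were not whole (tolerance 1e-06), so the authors' values are estimated counts, also called expected counts, and were rounded here. The authors' FPKM values served for levels between genes and for an alternative test. The submitters' processing notes name fastp 0.18.0, HISAT2 2.1.0, StringTie 1.3.1, RSEM, DESeq2 1.36.0 and build GRCm39, without roles; annotation release and strandedness are unknown here.

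Filtering by filterByExpr (minimum count 10, total 15) left 12366 genes. The test was edgeR's robust quasi-likelihood F test (edgeR 4.0.16, R 4.3.3) with TMM factors and no covariate, Benjamini-Hochberg adjusted over all genes at 0.05. SE is the log2 fold change divided by the root of F. Alternatives used DESeq2 1.42.0, limma 3.58.1, other scalings and filters, and omitted libraries. Libraries of 1 group differed by 38.2 to 150 times the sampling variance (chi-square per degree of freedom), so none was a duplicate. The labels call the pools biological replicates without saying whether parents or sessions were separate, and p-values reflect only the spread among them.

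The members and lists were chosen with earlier results of these data known. Named genes were the 10 members, up to 4 genes of smallest p per list, 10 genes fixed by name, the gene most like each member, and marker genes; 1 gene that this rule names is not reported here. Untranslated regions came from GENCODE M21 (GRCm38), and promoters and the microRNA from RefSeq (GRCm38.p6); their coordinates were not combined with the table.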

Additional observations from a re-analysis of the deposited data

Results flagged for a closer look

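Within a group of 4 libraries, a value was picked out when its gap to the nearest other library took a larger share of the group's range than Dixon's 95% critical value allows. Of 82 groups examined 5 were picked out, and chance picks about 1 in 20. Among the 20 groups of members 3 were picked out. Sod1 in agomir replicate 2 was at 52.5 CPM, where the other agomir libraries had 29.3 to 31.5 CPM, and in blank control replicate 2 at 68.5 CPM, where the other controls had 42.1 to 43.4 CPM. Sod2 in agomir replicate 3 was at 584 CPM, with 454 to 465 CPM in the other agomir libraries. In FPKM it was at 105 there, with 78.1 to 87.3 in the other agomir libraries. Keap1 was at 9.15 CPM in blank control replicate 1 (others 10.1 to 10.3 CPM), and Txnrd1 at 39.9 CPM in blank control replicate 4 (others 30.6 to 31.6 CPM).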

How the results depend on the processing

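Of the members, 0 of 10 were called under all 19 alternatives. At an unadjusted p under 0.05 there were 0, and 1 in a fit with a replicate block (Sod1, log2 fold change -0.45, edgeR unadjusted p = 0.026). Leaving out 1 library gave 0 to 1: Sod1 without agomir 2 and Gpx1 without control 3. Deviations of same-numbered libraries correlated at -0.163 to 0.19 and those of differently numbered libraries at -0.254 to 0.301. Such values cannot show whether the replicate numbers pair the pools, and the cause of the block's effect was not tested. Over all genes edgeR called 0, DESeq2 35 and leaving out 1 library 0 to 1 (1 without control 4); in the companion lists edgeR called 0 and DESeq2 1 (Me1). Companion genes at an unadjusted p under 0.05 numbered 12, 8 to 17 with 1 library left out and 7 without both control 2 and agomir 3. Some log2 fold changes turned sign. In log2(FPKM + 1) and log2(FPKM + 0.1) they were -0.0235 and -0.0236 for Prdx1, -0.0184 and -0.0185 for Prdx2, -0.14 and -0.15 for Ccs, and -0.0586 and -0.063 for Gsr. With library-size scaling, which shifted the median of all genes by -0.11, they were -0.0162 for Prdx2, -0.0678 for Ccs and -0.0961 for Gsr, and with upper-quartile scaling -0.00753 for Ccs and -0.0401 for Gsr. Cat was 0.0168 with DESeq2 size factors, 0.00657 with no filter, 0.0228 in DESeq2, 0.0626 in limma-voom and 0.15 without both libraries; Ccs was -0.0282 in limma-voom, -0.0225 with the replicate block and -0.21 without both. With 1 library left out, turned values were -0.0221 for Prdx2 and 0.0514 for Cat (control 2), 0.0338 for Cat and -0.0236 for Ccs (control 1), 0.098 for Cat, -0.29 for Ccs and -0.0177 for Gsr (agomir 3), -0.0109 for Gsr (agomir 1), 0.0676 for Maoa, 0.0703 for Cyba and -0.0428 for Gsr (control 3), and 0.0305 for Srxn1 and -0.0495 for Gsr (control 4). With 1 library left out, the widest values on the reported side were 0.18 for Prdx2, -0.48 for Maoa, -0.62 for Cyba, -0.0588 for Cat and 0.29 for Ccs. The cause of these turns was not tested. Even Sod1 had at least 484 counts in a library, and the sources of the spread between pools were not tested.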
